A study of Mus musculus with 8 samples.

Results

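Genes of the glutathione, thioredoxin and NRF2 antioxidant systems were followed in bone marrow cells sorted from SIRT1-deleted and control mice. The 38 genes were taken by name from the deposited count table of 48795 genes, and comprised 19 glutathione genes, 10 thioredoxin and peroxiredoxin genes, 3 superoxide and peroxide enzymes and 6 genes of the NRF2 pathway. All 38 were found under 1 identifier each, and all 38 passed the filter on low counts that left 14178 genes to test.

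The cells were LSK cells, sorted by flow cytometry as lacking lineage markers and carrying Sca-1 and c-Kit, a gate in which haematopoietic stem cells lie. There were 4 libraries from SIRT1 deleted (cre+) mice and 4 from control (cre-) mice. All 8 were of the C57BL/6 strain and had been induced for chronic myeloid leukaemia (CML) for 10 weeks, so the control mice carried the disease too. The submitters call the libraries of a genotype biological replicates, and these are numbered here in order of deposit. The labels name neither the Cre driver nor the way CML was induced, and give no age or sex.

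SIRT1 is an NAD-dependent deacetylase. Glutathione is a small thiol that peroxidases and transferases use to reduce peroxides and to conjugate electrophiles, and glutathione reductase returns its oxidised form to use with NADPH. Thioredoxin serves the peroxiredoxins in the same way, with thioredoxin reductase and NADPH behind it. NRF2, encoded by Nfe2l2, is a transcription factor held down by KEAP1 that binds antioxidant response elements near many of these genes, and in marrow these systems are known for limiting the reactive oxygen that drives stem cells out of quiescence.

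The core letters of the antioxidant response element were searched for in the promoters of the members, because their transcript levels were to be compared. RefSeq promoters of build GRCm38.p6 hold 250 bases before and 50 after a transcription start, 300 in all, and were found for 34 of the 38 genes in 45 entries. Gsr, Gclc, Prdx6 and Hmox1 were the 4 genes with no entry. The motif TGACNNNGC on either strand was in 8 of the 45 promoters (17.8%), against 12.4% of all 32851 promoters in the table. Counted by gene it was in 8 of 34 (23.5%), against 13.99% of 27025 genes. The 4 promoters printed here belong to genes with the motif whose log2 fold changes below were negative, level, or positive with overlapping groups. They lie at chr3:122245307-122245606 for Gclm, chr16:90220512-90220811 for Sod1, chr4:116685349-116685648 for Prdx1 and chr2:152105274-152105573 for Srxn1, each on the plus strand, and capitals mark the motif.
Gclm: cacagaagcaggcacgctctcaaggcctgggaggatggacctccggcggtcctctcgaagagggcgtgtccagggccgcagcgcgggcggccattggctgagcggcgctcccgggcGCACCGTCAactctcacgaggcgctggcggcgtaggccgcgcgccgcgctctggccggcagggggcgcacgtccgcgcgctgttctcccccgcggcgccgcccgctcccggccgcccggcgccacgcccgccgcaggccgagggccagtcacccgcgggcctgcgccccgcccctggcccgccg
Sod1: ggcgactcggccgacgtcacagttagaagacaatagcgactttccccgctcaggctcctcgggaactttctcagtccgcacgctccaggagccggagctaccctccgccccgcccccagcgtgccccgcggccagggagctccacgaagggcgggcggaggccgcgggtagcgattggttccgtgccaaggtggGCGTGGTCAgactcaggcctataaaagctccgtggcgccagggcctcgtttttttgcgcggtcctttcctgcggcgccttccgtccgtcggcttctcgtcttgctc
Prdx1: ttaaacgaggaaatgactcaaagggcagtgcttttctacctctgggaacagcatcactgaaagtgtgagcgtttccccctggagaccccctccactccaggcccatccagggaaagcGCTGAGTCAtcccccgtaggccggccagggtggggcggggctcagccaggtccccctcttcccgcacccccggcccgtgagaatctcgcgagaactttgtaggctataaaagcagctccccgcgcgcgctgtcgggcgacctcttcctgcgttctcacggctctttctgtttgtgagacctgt
Srxn1: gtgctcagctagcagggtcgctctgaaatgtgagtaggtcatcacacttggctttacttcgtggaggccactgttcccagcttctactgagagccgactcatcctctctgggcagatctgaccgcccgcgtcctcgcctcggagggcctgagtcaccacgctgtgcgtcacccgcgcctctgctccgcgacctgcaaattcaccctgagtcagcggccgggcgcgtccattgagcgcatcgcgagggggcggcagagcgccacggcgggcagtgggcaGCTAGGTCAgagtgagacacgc
The motif begins 134 bases before the start in Gclm, 56 before it in Sod1 and 133 before it in Prdx1, and lies after the start in Srxn1. In all 4 the motif is on the minus strand, so the printed strand shows its complement read backwards, GCACCGTCA, GCGTGGTCA, GCTGAGTCA and GCTAGGTCA. The other 4 genes with a match were Gstm5, Mgst1, Txnrd1 and Nfe2l2. A match describes letters and is not evidence of binding.

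Gene counts totalled 24648721 to 34280925 per Sirt1-deleted library and 18252562 to 28883834 per control library. Levels are given per library in CPM, read counts scaled to one common library size with TMM factors. Sirt1 had 17.0, 10.3, 8.87 and 7.43 CPM in Sirt1-deleted libraries 1 to 4, against 16.6, 17.9, 8.13 and 9.55 CPM in control libraries 1 to 4. These overlap (log2 fold change -0.26 ± 0.39 SE, edgeR adjusted p = 0.797), and since loss of part of a transcript cannot be read from one count per gene, the labels remain unchecked by it. Detected genes numbered 16154, 19534, 20062 and 20342 in Sirt1-deleted libraries 1 to 4, against 17407, 15316, 16670 and 19917 in control libraries 1 to 4. Sirt1-deleted 1 and control 2 had the fewest. The groups overlap, but Sirt1-deleted 2 to 4 each had more than control 1 to 3. The part of this in the differences below was not tested. Titles of the Sirt1-deleted libraries begin with 3 or 4 and those of the control libraries with 1 or 2, so whatever that digit stands for cannot be told apart from genotype. Of the genes that define the sorted cells, Kit was at 107 to 157 CPM in Sirt1-deleted and 32.3 to 43.9 CPM in control libraries (called higher, log2 fold change 1.89, edgeR adjusted p = 0.0145), and Ly6a, which encodes Sca-1, at 119 to 224 CPM and 232 to 779 CPM in the same order.

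By level per exon length, the antioxidant transcripts were led by those that reduce hydrogen peroxide and disulfides. Gpx1, a glutathione peroxidase that contains selenocysteine, averaged 7218 ± 2445 TPM (counts per exon length, as a share of all genes) in Sirt1-deleted and 9632 ± 1783 TPM in control libraries (SD, n = 4 each). Thioredoxin itself, Txn1, followed at 835 ± 251 and 1265 ± 143 TPM, and the glutathione transferase Gstm1 at 412 ± 116 and 830 ± 180 TPM in the same order of genotypes. The classic NRF2 target Nqo1, a quinone reductase, was near the bottom at 4.70 ± 1.77 TPM in Sirt1-deleted and 4.57 ± 2.39 TPM in control libraries, and the cystine importer gene Slc7a11 was lowest at 0.25 ± 0.21 and 0.35 ± 0.18 TPM. Gpx1 alone gave 40.3 to 55.2% of the counts of the 38 genes in Sirt1-deleted and 43.4 to 51.3% in control libraries. Without it, the other 37 took 0.497 to 0.591% of all gene counts in Sirt1-deleted libraries and 0.638 to 0.714% in control libraries, 2 ranges that do not overlap.

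**Figure D1:**
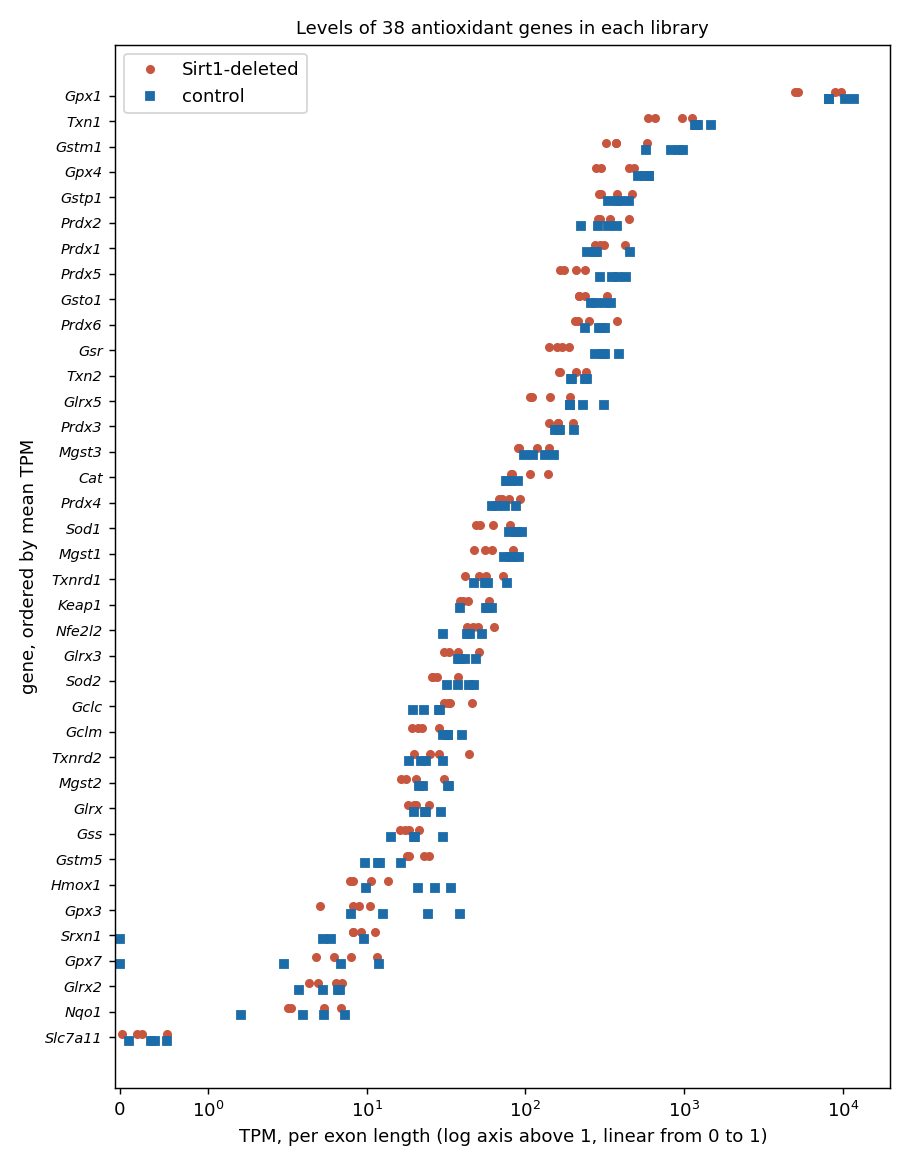
Level of each antioxidant gene in TPM (horizontal axis, log above 1 and linear from 0 to 1), genes ordered by mean, with Sirt1-deleted libraries as red circles above control libraries as blue squares. Gpx1 leads at 7218 and 9632 TPM on average, and Slc7a11 is lowest.

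Most antioxidant transcripts were at lower average levels in Sirt1-deleted LSK cells, and none passed the test over all genes. Log2 fold changes, given throughout as Sirt1-deleted minus control, were negative for 28 of the 38 genes with a median of -0.24, where 46.1% of the 14178 genes tested were negative and their median was 0.06. At an edgeR adjusted p under 0.05, 0 of the 38 were called, where 0.0846% of all genes were (7 higher, 0.0494%, and 5 lower, 0.0353%). At an unadjusted p under 0.05, 13 were lower and 1 was higher, where 8.6% of all genes were lower and 7.55% higher. DESeq2 called 12 of the 38, 11 lower and 1 higher, where it called 5.94% of all genes lower and 3.83% higher. Limma-voom with quality weights called 11, all lower, where it called 5.38% of all genes lower and 2.65% higher. Both of these tools called Gsr, Gclm, Gpx4, Glrx5, Gstm1, Prdx5, Txn1, Sod1 and Sod2, 9 genes. Without Sirt1-deleted 1, edgeR itself called 6, all lower (Gsr, Gpx4, Gstm1, Prdx5, Txn1 and Sod1). In that run it called 451 of 14780 genes tested, 372 lower and 79 higher.

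The CPM of all 4 Sirt1-deleted libraries lay below that of all 4 control libraries for 12 of the 38 genes, and above it for 1. Over all genes tested, 6.44% were separate and lower and 6.64% separate and higher. The 12 and the 1 depend on how libraries are scaled. They were 10 and 1 with total counts in place of TMM factors, where 5.03% of all genes were lower, and 5 and 2 in TPM, where 3.22% were. The 5 were Gsr, Gclm, Gpx4, Prdx5 and Txn1.

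**Figure D2:**
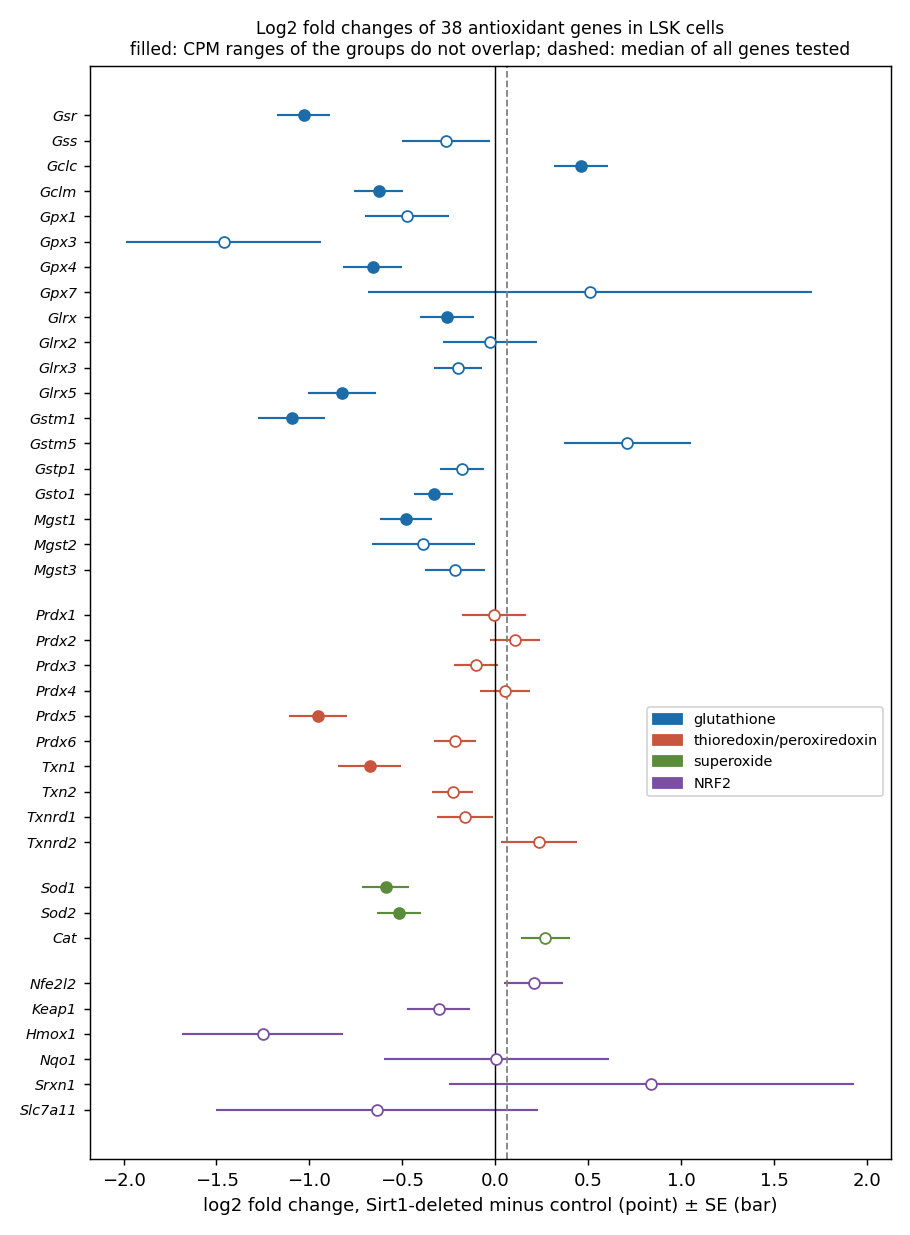
Log2 fold change of each gene (horizontal axis, Sirt1-deleted minus control) with its SE as a bar, grouped by colour from top to bottom as glutathione, thioredoxin/peroxiredoxin, superoxide and NRF2. Filled points mark the 12 lower genes and 1 higher gene whose CPM ranges do not overlap, and the dashed line is the median of all genes tested, 0.06.

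The glutathione genes were the largest group and 16 of the 19 had negative log2 fold changes, with a median of -0.33. Of these, 8 were lower at an unadjusted p under 0.05, and 1 was higher. Gsr, glutathione reductase (ENSMUSG00000031584.16, chromosome 8, 33652523 to 33698163), was at 225, 177, 209 and 186 CPM in Sirt1-deleted libraries 1 to 4, against 419, 494, 383 and 334 CPM in control libraries 1 to 4. Every Sirt1-deleted library was below every control library, at a mean fold of 0.489. Its log2 fold change was -1.03 ± 0.14 (SE, edgeR adjusted p = 0.0538), the 13th smallest p of all genes, directly after the 12 called. It ranged from -1.14 to -0.96 over the 17 alternative analyses.

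The enzymes that make glutathione stood on opposite sides. Glutamate-cysteine ligase, which makes its rate-limiting bond, is a pair of a catalytic subunit, Gclc, and a modifier subunit, Gclm. Gclm (ENSMUSG00000028124.15, chromosome 3, 122245557 to 122270732) was at 58.2, 61.9, 63.8 and 67.6 CPM in Sirt1-deleted libraries, against 94.0, 115, 89.2 and 90.4 CPM in control libraries. Gclc (ENSMUSG00000032350.8, chromosome 9, 77754535 to 77794485) was at 58.5, 59.1, 55.7 and 60.9 CPM in Sirt1-deleted libraries, against 36.3, 39.8, 46.6 and 47.7 CPM in control libraries. The groups do not overlap for either subunit, lower for Gclm and higher for Gclc in the Sirt1-deleted libraries. Log2 fold changes were -0.63 ± 0.13 for Gclm (edgeR adjusted p = 0.101) and 0.46 ± 0.14 for Gclc (0.177), and the difference between them was not tested. Gss, the synthetase of the last step, had -0.26 ± 0.24 with groups that overlap.

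Of the 4 glutathione peroxidases, Gpx4, which reduces lipid peroxides in membranes, separated the genotypes. It was at 370, 285, 249 and 229 CPM in Sirt1-deleted libraries and at 480, 475, 450 and 386 CPM in control libraries (log2 fold change -0.66 ± 0.16, edgeR adjusted p = 0.119). Sirt1-deleted 1 was the highest of its group and control 4 the lowest of its own. Gpx1 was at 6704, 4386, 3655 and 3453 CPM in Sirt1-deleted libraries and at 5827, 7817, 6496 and 5168 CPM in control libraries. It overlaps through Sirt1-deleted 1, and its log2 fold change was -0.48 ± 0.23 (0.349), or -0.77 without that library. Gpx3, the secreted peroxidase, was at 4.40 to 7.83 CPM in Sirt1-deleted and 6.30 to 34.8 CPM in control libraries, and its -1.46 ± 0.52 became -0.95 without control 1. Gpx7, a peroxidase of the endoplasmic reticulum, had 80 to 177 counts in Sirt1-deleted and 0 to 198 in control libraries, too uneven to place.

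Glutaredoxins, which use glutathione to reduce protein disulfides or to carry iron-sulfur clusters, differed among themselves. Glrx5, the iron-sulfur cluster carrier of mitochondria, was at 252, 240, 196 and 190 CPM in Sirt1-deleted libraries, against 346, 528, 371 and 312 CPM in control libraries. The groups are apart, with control 2 the highest (log2 fold change -0.83 ± 0.18, edgeR adjusted p = 0.101). Cytosolic Glrx was at 46.3 to 54.0 CPM in Sirt1-deleted and 54.1 to 71.3 CPM in control libraries (46.251 to 54.035 and 54.053 to 71.257), so the ranges all but touch. Glrx3 had a log2 fold change of -0.20 ± 0.13 and the mitochondrial Glrx2 of -0.03 ± 0.25, both with groups that overlap.

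Among the transferases that attach glutathione to electrophiles, Gstm1 (ENSMUSG00000058135.12, chromosome 3, 108012255 to 108017973) was at 261, 293, 265 and 228 CPM in Sirt1-deleted libraries. In control libraries it was at 601, 664, 599 and 374 CPM. Control 4 was the nearest of its group to the Sirt1-deleted range, and the log2 fold change was -1.10 ± 0.18 (edgeR adjusted p = 0.0672). Without control 4 it was -1.24, and Gstm1 was then 1 of 4 genes called among 14713 tested (edgeR adjusted p = 0.0398). Gstm5, of the same family, was at 7.88 to 15.2 CPM in Sirt1-deleted and 5.47 to 10.4 CPM in control libraries, with a log2 fold change of 0.71 ± 0.34. Gsto1, the omega-class transferase, was at 213 to 231 CPM against 247 to 322 CPM in control libraries, and microsomal Mgst1 at 45.7 to 59.6 CPM against 69.8 to 80.9 CPM in control libraries. Neither pair of ranges overlaps, with log2 fold changes of -0.33 ± 0.11 and -0.48 ± 0.14. Gstp1, Mgst2 and Mgst3 had -0.18, -0.39 and -0.22 with overlapping groups.

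**Figure D3:**
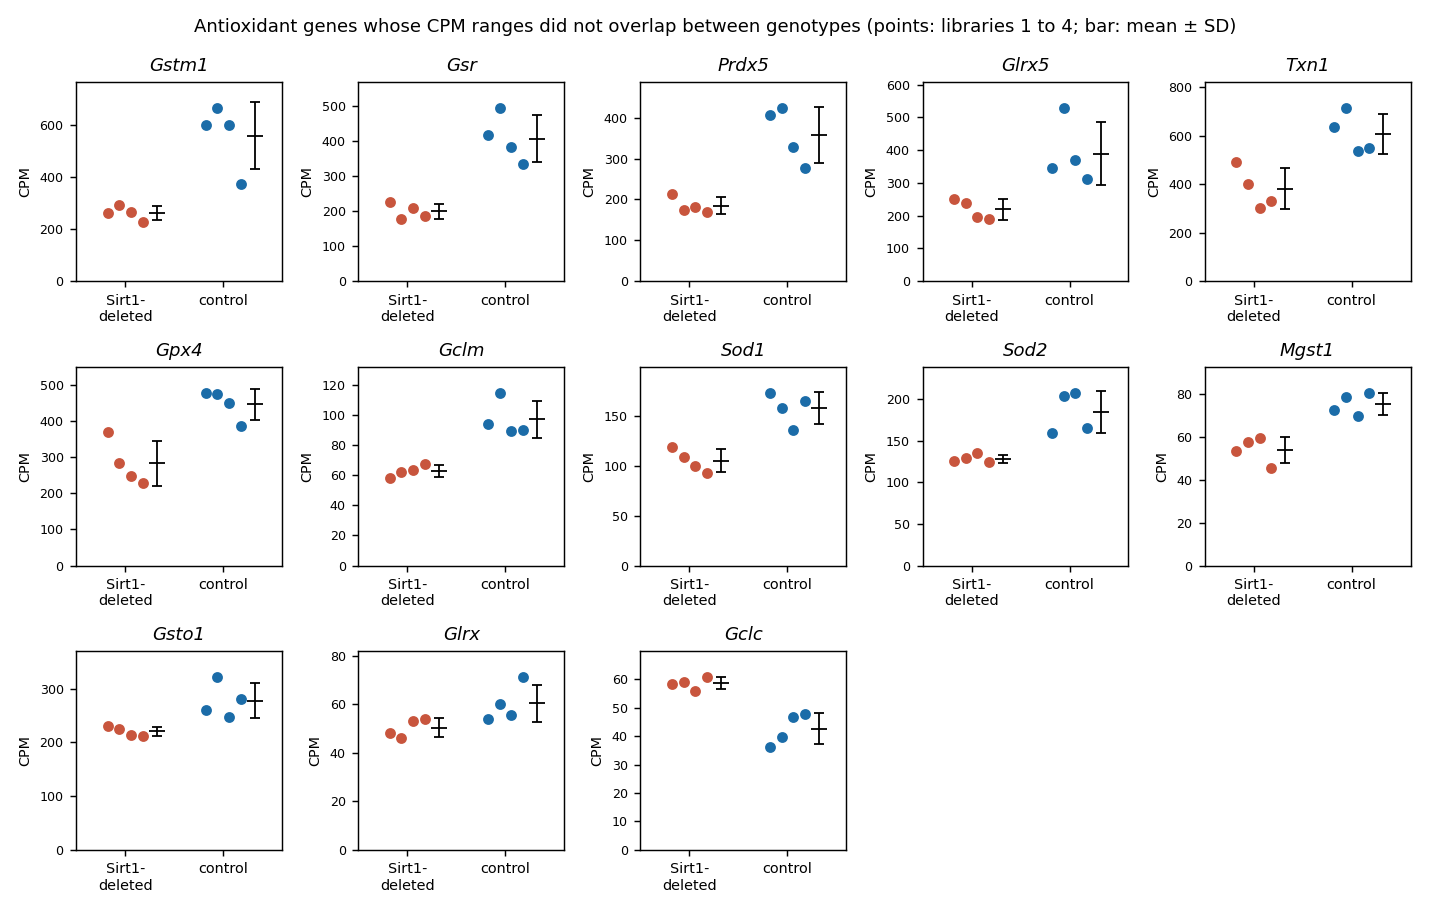
CPM (vertical axes, from 0) of the 13 genes whose group ranges did not overlap, with Sirt1-deleted libraries in red left of control libraries in blue, points for libraries 1 to 4 and a bar for the mean ± SD. Gstm1, Gsr and Prdx5 have the most negative log2 fold changes of the 13 (-1.10, -1.03 and -0.96), and Gclc is the 1 gene above.

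In the thioredoxin and peroxiredoxin group, 2 of the 10 genes separated the genotypes and the median log2 fold change was -0.13, with 7 negative. Prdx5, a peroxiredoxin found in mitochondria, peroxisomes and cytosol (ENSMUSG00000024953.16, chromosome 19, 6906697 to 6910106), was at 214, 175, 181 and 169 CPM in Sirt1-deleted libraries. In control libraries it was at 406, 423, 328 and 276 CPM. The groups do not overlap, and the log2 fold change was -0.96 ± 0.16 (edgeR adjusted p = 0.0672). Of its exons, 19.1% overlap Trmt112 on the opposite strand, which the library chemistry cannot tell apart.

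The other 5 peroxiredoxins had log2 fold changes from -0.22 to 0.11. Prdx1, the abundant cytosolic enzyme, was at 400, 440, 432 and 455 CPM in Sirt1-deleted libraries, against 366, 393, 366 and 611 CPM in control libraries. Control 4 stood apart from its group, and the log2 fold change was -0.01 ± 0.17, or 0.21 without it. Prdx2 had 0.11 ± 0.13, the mitochondrial Prdx3 -0.11 ± 0.12, Prdx4 of the endoplasmic reticulum 0.05 ± 0.14 and Prdx6, which has 1 catalytic cysteine, -0.22 ± 0.12. Their groups all overlap, and edgeR adjusted p ran from 0.400 (Prdx6) to 0.988 (Prdx1).

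Txn1, cytosolic thioredoxin, was at 490, 401, 302 and 330 CPM in Sirt1-deleted libraries, against 634, 713, 536 and 549 CPM in control libraries. The groups are apart, with a log2 fold change of -0.68 ± 0.17 (edgeR adjusted p = 0.130). It was -0.33 once the trend of each library on gene length and GC content was removed. Mitochondrial thioredoxin, Txn2, had -0.23 ± 0.11, the cytosolic reductase Txnrd1 -0.16 ± 0.15 and the mitochondrial reductase Txnrd2 0.23 ± 0.21, with groups that overlap. The separate positions of a cytosolic and a mitochondrial form were not tested against each other.

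Both superoxide dismutases were lower in every Sirt1-deleted library than in any control library, whereas catalase was not. Sod1, the copper-zinc enzyme of the cytosol, was at 120, 109, 99.8 and 93.0 CPM in Sirt1-deleted libraries, against 174, 158, 136 and 166 CPM in control libraries. Sod2, the manganese enzyme of mitochondria, was at 125, 130, 135 and 124 CPM in Sirt1-deleted libraries, against 159, 204, 208 and 165 CPM in control libraries. Log2 fold changes were -0.59 ± 0.13 and -0.52 ± 0.12 (edgeR adjusted p = 0.101 and 0.107). In TPM both pairs of ranges overlap. Cat, which breaks down hydrogen peroxide in peroxisomes, was at 102, 125, 104 and 133 CPM in Sirt1-deleted libraries and at 98.4, 96.9, 86.4 and 103 CPM in control libraries, with overlap and a log2 fold change of 0.27 ± 0.13 (0.364).

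The NRF2 group showed no separation for any of its 6 genes. Nfe2l2 was at 77.8, 82.7, 85.3 and 92.2 CPM in Sirt1-deleted libraries, against 56.5, 74.3, 73.6 and 88.6 CPM in control libraries. Keap1, its inhibitor, was at 87.6, 94.7, 99.1 and 91.3 CPM in Sirt1-deleted libraries, against 130, 132, 118 and 79.4 CPM in control libraries. Each overlaps through control 4, the highest control for Nfe2l2 and the lowest for Keap1. Log2 fold changes were 0.21 ± 0.16 and -0.31 ± 0.17 (edgeR adjusted p = 0.581 and 0.429).

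The established NRF2 targets of this group shared no common direction. Hmox1, haem oxygenase 1, was at 6.63, 6.40, 11.5 and 6.94 CPM in Sirt1-deleted libraries, against 29.3, 21.8, 7.52 and 16.3 CPM in control libraries. It was lower in 3 of the 4 Sirt1-deleted libraries than in any control, with Sirt1-deleted 3 above control 3 (log2 fold change -1.25 ± 0.43, edgeR adjusted p = 0.205). Srxn1, which restores overoxidised peroxiredoxins, was at 7.91 to 15.3 CPM in Sirt1-deleted and 0 to 11.96 CPM in control libraries. Its 0.84 ± 1.09 became 0.39 without control 1, the library at 0. Nqo1 had 59 to 167 counts in Sirt1-deleted and 32 to 105 in control libraries (0.01 ± 0.60), and Slc7a11 5 to 96 and 13 to 64 counts in the same order (-0.64 ± 0.87), both with wide overlap. The 8 genes with the TGACNNNGC motif in a promoter likewise ran from -0.63 (Gclm) to 0.84 (Srxn1), with 4 negative beyond -0.1 (Gclm, Sod1, Mgst1 and Txnrd1), Prdx1 at -0.01 and 3 positive (Nfe2l2, Gstm5 and Srxn1).

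**Figure D4:**
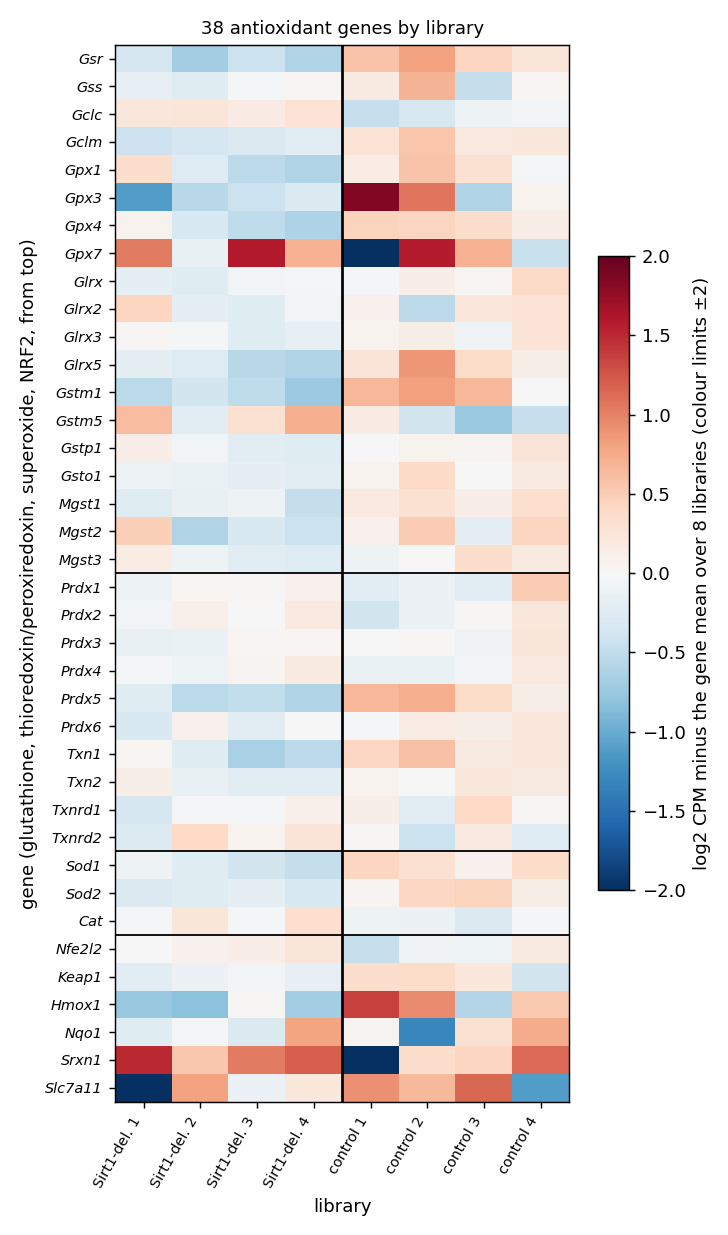
Log2 CPM of each gene minus its mean over the 8 libraries (colour, limits ±2), with Sirt1-deleted libraries left of control libraries and the 4 gene groups from top to bottom. The rows of Gsr, Gclm, Glrx5, Prdx5, Sod1 and Sod2 are blue on the left and red on the right, while control 1 and Sirt1-deleted 1 carry the extremes of Gpx3, Gpx7, Srxn1 and Slc7a11.

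The 38 genes were also described by protein chemistry and by place. Of the 5 selenoproteins, Gpx1, Gpx3, Gpx4 and Txnrd1 had negative log2 fold changes and Txnrd2 a positive one, with a median of -0.48 and 1 gene, Gpx4, separate in CPM. Of 6 genes counted as mitochondrial (Glrx2, Glrx5, Prdx3, Txn2, Txnrd2 and Sod2), 5 were negative with a median of -0.17, and Glrx5 and Sod2 were separate. With Prdx5, which is found elsewhere in the cell too, the median was -0.23 and 3 of 7 were separate. The mean of the centred log2 CPM over the 10 thioredoxin and peroxiredoxin genes was -0.14 to -0.05 in Sirt1-deleted and 0.05 to 0.17 in control libraries. It was -0.19 to -0.08 in Sirt1-deleted and 0.08 to 0.20 in control libraries over the 3 superoxide and peroxide enzymes, -0.28 to -0.15 and -0.01 to 0.52 over the selenoproteins, and -0.18 to -0.06 and 0.06 to 0.23 over the 6 mitochondrial genes. In these 4 sets, which share genes, the genotypes do not overlap, and no background over all genes was computed. The same mean over all 38 genes was -0.13 to -0.08 in Sirt1-deleted and -0.09 to 0.25 in control libraries, which overlap through control 1. Over the 19 glutathione genes it was -0.24 to 0.01 and -0.03 to 0.40, and over the 6 NRF2 genes -0.37 to 0.26 and -0.66 to 0.24, in the same order of genotypes and overlapping in both. In each of these last sets the lowest control mean was that of control 1. Gpx7 and Srxn1 had 0 counts in that library and centred values of -5.00 and -6.17, which pull its means down. Means without these genes were not computed.

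Other genes of the same pathways, from 5 lists, held 0 genes called by edgeR, where 0.0846% of all genes were called. At an unadjusted p under 0.05 in either direction, edgeR marked 16.2% of all genes tested. The shares were 13.0% for other glutathione enzymes, 12.5% for the wider thioredoxin system and repair, and 18.2% for the wider NRF2 pathway. They were 18.75% for NADPH supply and 30% for other selenoproteins and selenocysteine machinery. Among 23 tested of the 31 other glutathione enzymes found, 2 were higher and 1 lower at an unadjusted p under 0.05, and the median log2 fold change was 0.03. Abcc1, which exports glutathione conjugates, had 0.86 ± 0.34, and Esd, an esterase that acts on a glutathione thioester, -0.33 ± 0.13. Ltc4s, which joins glutathione to a leukotriene, had 1.28 ± 0.47 and Gstz1 0.71 ± 0.33 (unadjusted p = 0.0638). These differences are on the log2 scale, and their edgeR adjusted p ran from 0.230 to 0.343.

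Among 24 tested genes of the wider thioredoxin system and of protein repair, 2 were higher and 1 lower at an unadjusted p under 0.05, with a median of 0.10. Msrb1, a selenocysteine enzyme that repairs oxidised methionine, was at 45.7, 31.998, 34.1 and 37.9 CPM in Sirt1-deleted libraries, against 81.5, 84.3, 83.3 and 73.0 CPM in control libraries. The groups are far apart, and the log2 fold change of -1.11 ± 0.16 had the same edgeR adjusted p as Gsr, 0.0538. Txnip, which binds and inhibits thioredoxin, was at 99.4, 154, 151 and 170 CPM in Sirt1-deleted libraries, against 76.1, 55.6, 84.1 and 93.9 CPM in control libraries. All Sirt1-deleted libraries were above all control libraries (0.89 ± 0.21, adjusted p = 0.118). Sesn1, a p53-induced sestrin, had 1.17 ± 0.37, and Msrb3 1.502 ± 0.66 (0.182 and 0.310).

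Among 22 tested genes of the wider NRF2 pathway, 1 was higher and 3 lower at an unadjusted p under 0.05, with a median of -0.02. Nfe2, a relative of NRF2 known for its role in megakaryocytes, was at 279 to 330 CPM in Sirt1-deleted and 205 to 238 CPM in control libraries (0.49 ± 0.10, edgeR adjusted p = 0.0949). Ftl1, ferritin light chain, was at 507 to 657 CPM against 747 to 1023 CPM in control libraries (-0.64 ± 0.14, adjusted p = 0.101). Both are separate between the genotypes, in opposite directions. Osgin1 had -0.66 ± 0.25 and Mafg, a small MAF partner of NRF2, -0.69 ± 0.29 (0.241 and 0.298).

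NADPH, which both reductases consume, comes largely from the pentose phosphate pathway and from dehydrogenases of 1-carbon and citrate metabolism. Of 16 tested genes, 12 had negative log2 fold changes with a median of -0.27, and 2 were lower and 1 higher at an unadjusted p under 0.05. Taldo1, transaldolase, was at 586 to 754 CPM in Sirt1-deleted and 765 to 998 CPM in control libraries (-0.52 ± 0.13, edgeR adjusted p = 0.124). Pgd, which yields NADPH directly, was at 193 to 252 CPM against 262 to 299 CPM in control libraries (-0.40 ± 0.11, adjusted p = 0.153). Mthfd1 had 0.31 ± 0.13 and Nnt, which makes NADPH in mitochondria, 0.66 ± 0.31. In the list of other selenoproteins and of selenocysteine machinery, 2 of 20 tested genes were higher and 4 lower at an unadjusted p under 0.05, with a median of -0.10. Selenon had 0.86 ± 0.25, Selenow -0.69 ± 0.21, Selenom -0.81 ± 0.28 and Selenos -0.42 ± 0.15, each with an edgeR adjusted p from 0.162 to 0.217.

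Summed markers of other cell types were apart between the genotypes for some lists and overlapped for others. In bulk samples, fewer cells of a type and less RNA per cell cannot be told apart. The 14 markers of granulocyte-monocyte progenitors and neutrophils summed to 15843, 11441, 12124 and 8235 CPM in Sirt1-deleted libraries, against 26034, 26979, 21879 and 12837 CPM in control libraries. Of these, 13 had negative log2 fold changes with a median of -1.17, and control 4 overlapped the Sirt1-deleted range. The 10 macrophage and monocyte markers summed to 553 to 921 CPM in Sirt1-deleted and 983 to 1819 CPM in control libraries, with the 3 C1q genes at 0 to 6.75 CPM. Ly6c2 led that sum, the other 9 overlapped at 323 to 460 CPM in Sirt1-deleted and 373 to 510 CPM in control libraries, and 4 of the 10 had positive log2 fold changes. The 9 sort and progenitor markers summed to 1128 to 1372 CPM in Sirt1-deleted and 774 to 1264 CPM in control libraries, with the highest control sum, that of control 1, led by Ly6a. Of these, 8 had positive log2 fold changes, 7 were separate and higher, and the median was 1.18. The 8 mast cell and basophil markers summed to 346 to 1289 CPM in Sirt1-deleted and 1191 to 6505 CPM in control libraries, led by control 1. The 11 plasma and B cell markers summed to 666 to 5277 CPM and 837 to 2315 CPM, the 7 T and NK markers to 459 to 519 CPM and 612 to 727 CPM, and the 7 endothelial and stromal markers to 102 to 116 CPM and 49.2 to 83.4 CPM, again Sirt1-deleted before control. Nkg7 led the T and NK sum at 405 to 490 CPM in Sirt1-deleted and 502 to 612 CPM in control libraries. Without Nkg7, the sums of the other 6 T and NK markers were still apart. Pecam1 led the endothelial sum at 81.6 to 104 CPM in Sirt1-deleted and 47.5 to 75.6 CPM in control libraries. Without Pecam1, the other 6 overlapped, with sums down to 7.83 CPM in Sirt1-deleted and up to 11.5 CPM in control libraries. The part of these cells in the antioxidant values was not tested. Of the 16 erythroid markers, 6 stayed under 1 CPM in every library. The list summed to 282 to 426 CPM in Sirt1-deleted and 173 to 361 CPM in control libraries, and of its sum Car2, which stem cells also express, took 153 to 362 CPM and 84.4 to 122 CPM.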

How the data were processed

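Per the labels' protocols, libraries were made with a SMARTer Ultra Low Input kit and Nextera XT. Such libraries mark no strand and carry no molecular identifiers. The deposited values are raw read counts per gene. The submitters' processing notes name STAR 2.5.3, HTSeq 0.9.1 and build GRCm38. The annotation release and the strand setting were not given in the sources used here. Rows that name no gene took 33.2 to 40.6% of a library's records, most of them reads with several alignments, and were left out. Reads shared by near-identical copies are therefore missing, and 8 of the 38 genes share at least 100 bases at 97% identity or more with another gene (among them Gpx4, Gstm1 and Gstp1). Exons of 7 overlap a gene on the opposite strand. Symbols were matched without version (99.1% of identifiers), and positions and exon lengths are those of GENCODE for GRCm38. For control 4, column name and title differ in their last letter, and no other title starts alike.

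The two-sided test was edgeR's quasi-likelihood F test, in edgeR 4.0.16 under R 4.3.3, after TMM scaling, filterByExpr, robust estimation and Benjamini-Hochberg adjustment over all 14178 genes, called under 0.05. CPM use TMM library sizes. An SE is the size of the log2 fold change divided by the root of its F. TPM serve to set genes beside each other. The procedure was tested on simulated data, where DESeq2 recovered more of the changed genes than edgeR but made a larger share of false calls. There, edgeR and limma-voom each missed most of the changes set at 2-fold. The simulation limited the largest spreads between libraries, so it does not decide between the tools for these data. The 38 genes and all lists were chosen with earlier results of these data known. Named are all 38 and the 4 genes of smallest p of each pathway list, and other genes were named after their values were seen. Alternatives were DESeq2 1.42.0, limma-voom (limma 3.58.1), 2 other scalings, no filter on low counts, removal of a length and GC trend per library, fewer libraries and a block by title letter. P-values set the difference between genotypes against the spread between libraries of the same genotype.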

Additional observations from a re-analysis of the deposited data

Results flagged for a closer look

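For 3 genes, 1 library lay further from the rest of its group of 4 than Dixon's 95% critical value allows. Of 76 groups looked at, chance marks about 1 in 20. Hmox1 was at 11.5 CPM in Sirt1-deleted 3, where the other Sirt1-deleted libraries were at 6.40 to 6.94 CPM. Nqo1 was at 5.13 CPM in Sirt1-deleted 4, where the others of that genotype were at 2.40 to 2.86 CPM. Prdx1 was at 611 CPM in control 4, where the other control libraries were at 366 to 393 CPM.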

How the results depend on the processing

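The labels number no replicates, but each genotype has 1 title with each of the letters L, R, B and N, whose meaning is not stated, and the sparsest 2 libraries both carry R. Libraries of the same letter did not all deviate together (r of their deviations from the group means over 14178 genes, -0.09 to 0.25 for the 4 pairs of 1 letter and -0.23 to 0.17 for the 12 others), so the letters were not taken to pair them. With the letter as a replicate block, chosen after seeing the data, 0 antioxidant genes and 0 genes in all were called by edgeR. In that fit, 12 antioxidant genes were lower and 1 higher at an unadjusted p under 0.05. The log2 fold change of Prdx1 was 0.0264 there. Over 17 alternatives, 30 of the 38 genes kept the sign of their log2 fold change. On all 8 libraries with the filter, edgeR called no antioxidant gene with TMM or RLE scaling or with the length and GC trend removed. The count of called antioxidant genes was 1 with total counts and 1 with no filter on low counts (Gsr in both), 12 with DESeq2, 11 with limma-voom and 5 without the sparsest 2 libraries (Sirt1-deleted 1 and control 2). It ran from 0 to 6 when each library was left out in turn, with 6 without Sirt1-deleted 1 and 1 without control 4 (Gstm1). Over all genes the count was 12 of 14178 tested, against 14 of 14178 with total counts, 13 of 25476 with no filter and 4 of 14713 without control 4. It was 1086 of 11113 with DESeq2, 1139 of 14178 with limma-voom and 311 of 14574 without the sparsest 2 libraries. With titles starting with 2 or 4 it was 1 of 14047, and it ran from 0 to 451 when each library was left out. The number of antioxidant genes lower at an unadjusted p under 0.05 ran from 12 to 18. The share of all genes lower at that cut was counted only in the main analysis (8.6%). The counts under the alternatives, that with the letter block included, therefore have no background beside them. The median of the superoxide group was -0.46 with total counts, -0.65 with the trend removed, -0.46 with limma-voom, -0.58 with titles starting with 2 or 4, and -0.58 to -0.49 with a library left out. That of the thioredoxin and peroxiredoxin group was -0.0745 with total counts and -0.20 to -0.11 with a library left out.

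Signs turned for 8 genes, whose log2 fold changes in the main analysis ran from -0.22 (Mgst3) to 0.11 (Prdx2). With the trend removed Gstp1 was at 0.0582, Mgst3 at 0.12, Prdx3 at 0.18 and Prdx1 at 0.0934. With total counts Prdx1 was at 0.0476 and Glrx2 at 0.0204, with no filter Prdx1 at 0.0142, and with titles starting with 2 or 4 Prdx1 at 0.18 and Glrx2 at 0.10. Nqo1 was at -0.0107 with RLE, -0.0083 with DESeq2, -0.0383 with limma-voom and -0.21 without the 2 libraries, where Prdx4 was at -0.0034. With a library left out the ranges were -0.24 to 0.0568 for Glrx2, -0.34 to 0.30 for Nqo1, -0.12 to 0.21 for Prdx1, -0.0215 to 0.21 for Prdx2 and -0.0317 to 0.14 for Prdx4. Gpx1 was at -0.22 with the trend removed. The cause of these shifts was not tested. The median of all genes was 0.17 with limma-voom and 0.06 in the main analysis. Slc7a11 and Nqo1 had 5 to 167 counts, and Gpx7 and Srxn1 0 in control 1, and the part of depth in their spread was not tested.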
